A study of Saccharomyces cerevisiae with 14 samples.

Results

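Yeast genes of respiratory growth, desiccation and stationary phase were followed across carbon sources and genotypes: RGI1 and RGI2, TMA10 and STF2, SIP18 and GRE1, and SPG1, SPG4 and SPG5. These 9 genes, of 6664 in the deposited table, were chosen by name with their rise in ethanol already known, so their difference between ethanol and glucose was used to select them and is given as a description with no test. All 9 passed the filter on low values (at least 1 FPKM in at least 3 libraries), as did 6267 genes in all. FPKM counts the fragments mapped to a gene, scaled by the length of the gene and by the mapped total of the library. The length used for the deposited values is not given. The depth estimate below took 200 bases off each coding length, which weighs most on SIP18 (240 bases), STF2 (255) and TMA10 (261). If the deposited values did so too, these genes read high against longer ones. Levels, ranks and shares between genes are therefore those of FPKM only.

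Messenger RNA was profiled in 14 libraries of the budding yeast Saccharomyces cerevisiae, to compare cells with and without FPT1 before and after a change of carbon source. All cultures shared the background MATa his3Δ1 leu2Δ0 met15Δ0 ura3Δ0. The wild-type groups, 3 libraries in each medium, were the laboratory strain BY4741, and the deletion groups, 4 libraries in each medium, carried fpt1::KanMX in addition. The labels name the deletion strain NKI5633 for replicates 1 to 3 and NKI5620 for replicate 4. One set was taken from mid-log growth in the glucose medium YEPD, and the other after 2 h in ethanol. The temperature was 30 °C for all 14 libraries. None of the cultures was in stationary phase, the state that the SPG genes are named for. The replicates are not stated to be separate cultures, so the p-values below measure the spread between these libraries, which may be partly technical.

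FPT1 itself read 52.4, 51.9 and 51.9 FPKM in wild-type glucose libraries and 136, 150 and 158 FPKM in wild-type ethanol libraries, against at most 0.412 FPKM in the deletion libraries. Depth is known only roughly. An estimate from the steps between the lowest FPKM values gave 6090000 to 12500000 reads per library. The libraries summed to between 1.65e+06 and 2.03e+06 FPKM, and 326 to 530 genes were listed at 0 in each.

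When glucose runs out, budding yeast turns from fermentation to respiration of the ethanol it has made, and the glucose-sensitive Ras and protein kinase A pathway loses activity. The transcription factors Msn2, Msn4 and Gis1 then act through short promoter elements, the stress response element CCCCT and the post-diauxic shift element with the core AGGGAT, while Hap4 and its partners act through CCAAT. Rgi1 and Rgi2 are paralogous proteins of energy metabolism under respiratory growth. Tma10 and Stf2 are another pair, Tma10 being found with ribosomes and Stf2 with the F0 sector of the mitochondrial ATP synthase and in cells that survive drying. Sip18 and Gre1 are hydrophilins, very hydrophilic proteins that help cells through drying and rewetting, and Spg1, Spg4 and Spg5 are needed for survival at high temperature in stationary phase.

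All 9 genes lie in a single exon and overlap no other annotated gene in the RefSeq annotation of assembly R64. RGI1 (YER067W) occupies chromosome V from 292066 to 292551 on the plus strand, and RGI2 (YIL057C) chromosome IX from 247902 to 248396 on the minus strand. TMA10 (YLR327C) occupies chromosome XII from 783127 to 783387, and STF2 (YGR008C) chromosome VII from 508110 to 508364, both on the minus strand. SIP18 (YMR175W) occupies chromosome XIII from 611016 to 611255 on the plus strand, and GRE1 (YPL223C) chromosome XVI from 128632 to 129138 on the minus strand. SPG1 (YGR236C) occupies chromosome VII from 962530 to 962817 on the minus strand. SPG4 (YMR107W) and SPG5 (YMR191W) lie on the plus strand of chromosome XIII, from 483014 to 483361 and from 645656 to 646777. The 9 genes are therefore spread over 6 chromosomes, and those sharing one are not neighbours.

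The promoter sequences are shown for the stress response element. Each of the other elements searched was also found in front of some members and not others. The promoters of 8 members are described. Windows of 300 bases, from 400 to 101 bases before the start codon, were read 5′ to 3′ in the direction of each gene from R64, whose chromosome lengths equal those of sacCer3. Capitals mark CCCCT or its reverse complement AGGGG. The 4 windows that hold the stress response element are given.
RGI1 promoter window, chrV:291666-291965, plus strand: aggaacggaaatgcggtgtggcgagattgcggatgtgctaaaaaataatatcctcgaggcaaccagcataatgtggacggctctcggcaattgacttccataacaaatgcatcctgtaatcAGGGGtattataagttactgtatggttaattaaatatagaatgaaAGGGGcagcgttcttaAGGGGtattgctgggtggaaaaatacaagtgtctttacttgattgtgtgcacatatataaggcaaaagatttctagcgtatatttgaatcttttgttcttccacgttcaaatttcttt
TMA10 promoter window, chrXII:783488-783787, minus strand: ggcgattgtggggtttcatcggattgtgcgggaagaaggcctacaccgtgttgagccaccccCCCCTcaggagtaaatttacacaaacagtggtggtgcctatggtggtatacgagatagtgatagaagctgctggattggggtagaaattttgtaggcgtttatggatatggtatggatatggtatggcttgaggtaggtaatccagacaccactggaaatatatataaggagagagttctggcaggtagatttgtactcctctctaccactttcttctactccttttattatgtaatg
STF2 promoter window, chrVII:508465-508764, minus strand: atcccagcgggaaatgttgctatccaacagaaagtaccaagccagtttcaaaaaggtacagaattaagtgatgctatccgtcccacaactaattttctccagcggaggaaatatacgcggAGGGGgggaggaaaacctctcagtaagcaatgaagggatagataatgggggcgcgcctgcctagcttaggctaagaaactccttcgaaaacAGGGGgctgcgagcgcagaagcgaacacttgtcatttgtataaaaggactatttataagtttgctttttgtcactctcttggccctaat
SIP18 promoter window, chrXIII:610616-610915, plus strand: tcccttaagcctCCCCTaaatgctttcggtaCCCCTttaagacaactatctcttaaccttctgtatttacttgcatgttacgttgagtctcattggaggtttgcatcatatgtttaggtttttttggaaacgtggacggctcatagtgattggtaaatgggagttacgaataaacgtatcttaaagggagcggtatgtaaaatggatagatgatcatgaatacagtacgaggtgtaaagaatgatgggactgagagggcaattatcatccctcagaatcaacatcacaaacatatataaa

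RGI1 held 3 stress response elements in its window, with their first bases at -279, -234 and -218 from the start codon. STF2 held 2, at -280 and -189, SIP18 held 2, at -388 and -369, and TMA10 held 1, at -338. GRE1, the paralogue of SIP18, held none, nor did SPG1, SPG4 and SPG5, so the element is present in 4 of these 8 members, against 23.6% of the 6007 yeast promoter windows of this length. A wider window of 500 to 1 bases before the start codon was, like the first, chosen after the data were seen. There the same 4 members held the element, RGI1 then 4 times, against 34.1% of windows. The core AGGGAT stood once each in the windows of STF2, SIP18 and SPG1, against 9.74% of all windows. CCAAT was found in 4 members (TMA10, SIP18, SPG1 and SPG5), against 43.9% of windows, and TATAAA in 4, against 43.8%. All motifs were searched on both strands. A match describes the letters only, and its absence says nothing about the factor.

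**Figure D1:**
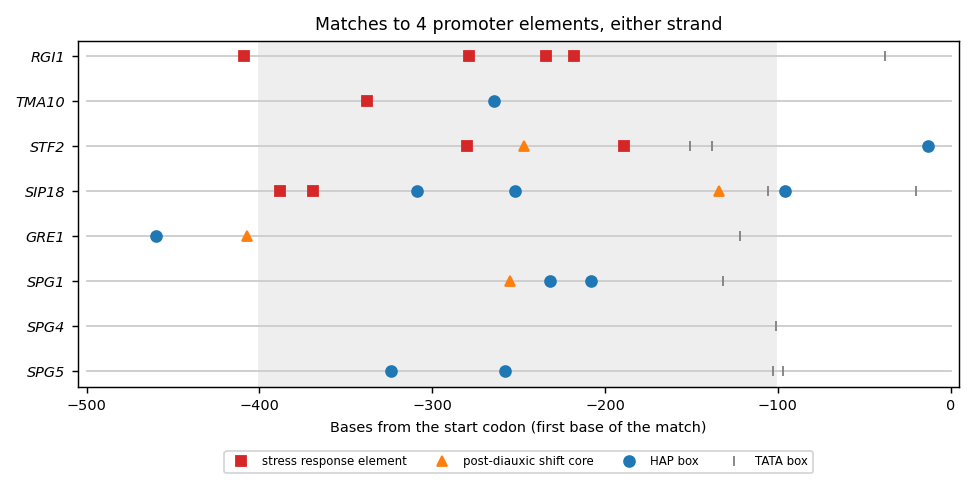
Positions of 4 promoter elements before 8 of the 9 genes, on either strand, in bases from the start codon. Each row is 1 gene, each symbol is the first base of a match, and the shaded band is the window of 400 to 101 bases. The stress response element (squares) is seen in front of RGI1, TMA10, STF2 and SIP18 and in front of none of the other 4 genes drawn.

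The proteins, translated from the same assembly, form unequal pairs. Rgi1 and Rgi2 share 107 of 164 aligned positions (65.2%), and Tma10 and Stf2 share 54 of 86 (62.8%). Sip18 and Gre1 share 32 of 177 (18.1%), which lies within the 7.24% to 19.0% of the 33 pairs that are not paralogues. The longest run of identical bases in the coding regions was 11 for RGI1 with RGI2, 12 for TMA10 with STF2 and 9 for SIP18 with GRE1. The 65-base reads are longer than any of these runs. Glycine made up 13.1% of Gre1, 12.7% of Sip18, 11.9% of Stf2 and 11.6% of Tma10, against a median of 4.94% over all yeast proteins. The same 4 proteins were the most hydrophilic of the 9, with mean hydropathy (the Kyte-Doolittle scale, lower being more hydrophilic) from -1.85 in Gre1 to -1.37 in Tma10, against a median of -0.39. Spg1 and Spg5, at -0.12 and -0.26, lay above that median.

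**Figure D2:**
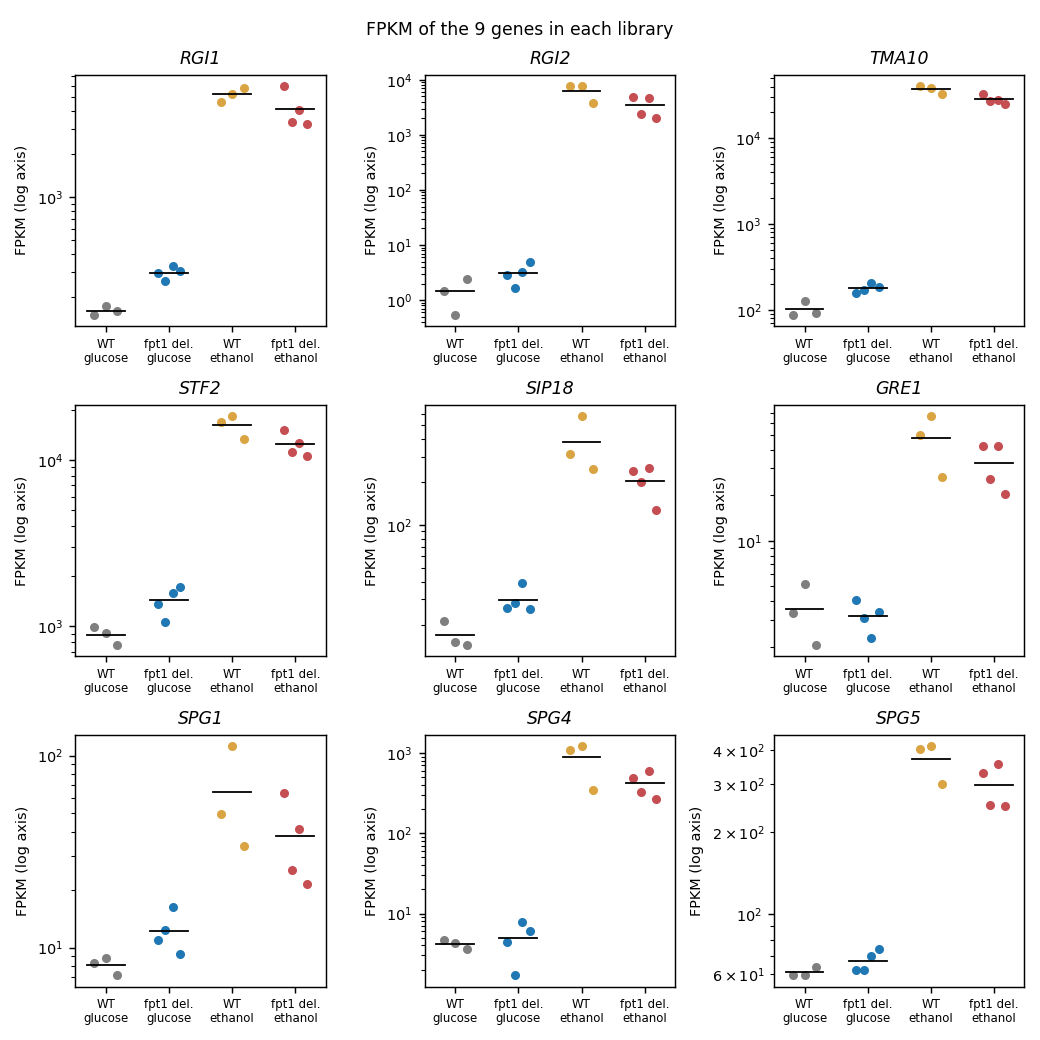
FPKM of each of the 9 genes on a log axis, with 1 panel per gene, 1 point per library (3 wild-type and 4 deletion libraries per medium) and a line at the group mean. Every ethanol library stands above every glucose library in all 9 panels, and the axes differ between panels.

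RGI2 went from near absence in glucose to a high level in ethanol. By FPKM its ethanol rank among 6664 genes was 21 to 91 in wild type and 58 to 195 in the deletion. Its level in wild-type glucose libraries was 1.49, 0.544 and 2.39 FPKM, and in deletion glucose libraries 2.81, 1.64, 3.25 and 4.96 FPKM. In wild-type ethanol libraries it was 7699, 7584 and 3771 FPKM, and in deletion ethanol libraries 4915, 2374, 4634 and 2008 FPKM. The medium groups were far apart, while the genotypes overlapped in both media, with the third wild-type ethanol library at about the level of the deletion. The ethanol mean was 4310 times the glucose mean in wild type and 1101 times in the deletion. On the log2(FPKM + 1) scale used for all differences, which understates changes of low genes, this was 11.33 ± 0.41 (SE) in wild type and 9.66 ± 0.36 in the deletion. The glucose values correspond to roughly 1 to 14 reads per library, so the size of the ratio is loosely fixed.

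RGI1, its paralogue, was already well expressed in glucose and reached the same range in ethanol. It read 150, 172 and 158 FPKM in wild-type glucose libraries and 295, 259, 328 and 302 FPKM in deletion glucose libraries. The ethanol values were 4638, 5266 and 5840 FPKM in wild type and 5986, 3357, 4061 and 3227 FPKM in the deletion. In glucose every deletion library was above every wild-type library, and in ethanol the groups overlapped because the first deletion library was the highest of the 7. The change with ethanol was 5.02 ± 0.18 on the log2 scale in wild type and 3.77 ± 0.16 in the deletion, or 32.8 and 14.05 times the glucose mean in FPKM.

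The balance of the RGI pair therefore shifted with the medium. In wild-type glucose libraries RGI2 made up 0.93% ± 0.59 (SD, n = 3) of the summed FPKM of the pair, and in wild-type ethanol libraries 53.6% ± 12.5 (n = 3). The deletion gave 1.04% ± 0.41 (n = 4) and 44.5% ± 6.45 (n = 4), overlapping the wild type in each medium. A reading frame named YER067C-A, which its name places beside RGI1 on the opposite strand and for which the annotation has no entry, read 2.81 to 18.3 FPKM in glucose and 8.41 to 117 FPKM in ethanol. Whether reads of RGI1 entered this value was not tested, as the strand setting behind the FPKM values is not given.

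TMA10 reached one of the highest FPKM values of any gene in ethanol. In glucose it read 87.4, 126 and 92.7 FPKM in wild type and 158, 169, 206 and 186 FPKM in the deletion. After the move to ethanol it reached 40783, 38257 and 32750 FPKM in wild type and 33105, 27376, 28232 and 25262 FPKM in the deletion. The genotypes did not overlap in glucose, and in ethanol they overlapped through 1 library of each. By FPKM it ranked 2 of 6664 genes in each wild-type ethanol library and 3 in each deletion ethanol library, after ranks of 1177 to 2290 in glucose. These ranks depend on the unknown length used to scale a gene of 261 bases. The log2 change with ethanol was 8.51 ± 0.15 in wild type and 7.30 ± 0.13 in the deletion, 365 and 159 times the glucose mean.

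STF2 was the highest of the 9 genes in glucose. It read 983, 908 and 771 FPKM in wild-type glucose libraries and 1350, 1065, 1585 and 1728 FPKM in deletion glucose libraries. In ethanol it read 16815, 18271 and 13322 FPKM in wild type and 15073, 11195, 12654 and 10466 FPKM in the deletion. Again the deletion lay wholly above the wild type in glucose and overlapped it in ethanol. The log2 change with ethanol was 4.18 ± 0.19 in wild type and 3.12 ± 0.16 in the deletion.

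TMA10 lay below STF2 in every glucose library and above it in every ethanol library. TMA10 made up 10.4% ± 2.02 (SD, n = 3) of the pair's summed FPKM in wild-type glucose libraries and 69.9% ± 1.89 (n = 3) in wild-type ethanol libraries. In the deletion the shares were 11.3% ± 1.74 (n = 4) and 69.9% ± 1.14 (n = 4). The 7 ethanol libraries spanned 67.7% to 71.1%, a narrower spread than that of the RGI pair in ethanol, which ran from 38.4% to 62.4%.

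**Figure D3:**
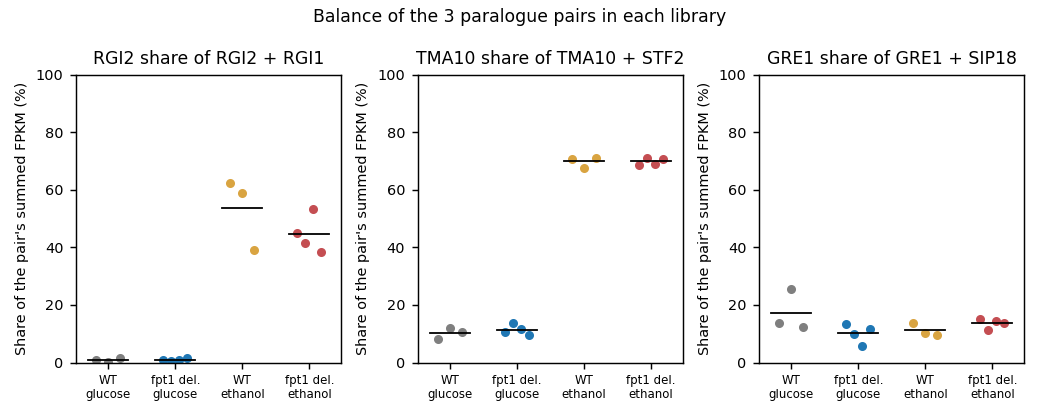
Share of the first-named gene in the summed FPKM of each paralogue pair, in percent, with 1 point per library and a line at the group mean. RGI2 goes from about 1% to 38.4% to 62.4% and TMA10 from about 10% to about 70% of its pair, while GRE1 stays between 5.59% and 25.5% of its pair in all 14 libraries.

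SIP18 and GRE1, the hydrophilin pair, had low levels in glucose, and SIP18 had the higher FPKM of the pair in all 14 libraries. Their coding lengths differ (240 and 507 bases), so this order depends on the unknown length used in the scaling. SIP18 read 21.2, 15.2 and 14.4 FPKM in wild-type glucose libraries and 26.0, 28.3, 38.9 and 25.7 FPKM in deletion glucose libraries. The ethanol values were 313, 575 and 246 FPKM in wild type and 236, 198, 250 and 127 FPKM in the deletion. The glucose groups did not overlap, and in ethanol only the third deletion library exceeded the lowest wild-type library. The log2 change with ethanol was 4.32 ± 0.30 in wild type and 2.703 ± 0.26 in the deletion.

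GRE1 was among the lowest of the 9 genes. It read 3.34, 5.21 and 2.06 FPKM in wild-type glucose libraries and 4.04, 3.10, 2.30 and 3.42 FPKM in deletion glucose libraries. After the move to ethanol it reached 50.03, 66.4 and 26.3 FPKM in wild type and 42.1, 25.5, 42.5 and 20.2 FPKM in the deletion. Unlike those of SIP18, the glucose groups of GRE1 overlapped fully, since the deletion values fell inside the wild-type range. The log2 change with ethanol was 3.38 ± 0.36 in wild type and 2.94 ± 0.31 in the deletion.

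SPG4 had the widest range of the SPG genes. It read 4.69, 4.32 and 3.57 FPKM in wild-type glucose libraries and 4.36, 1.71, 7.74 and 5.99 FPKM in deletion glucose libraries. In ethanol it read 1105, 1212 and 350 FPKM in wild type and 496, 327, 606 and 270 FPKM in the deletion. Both pairs of groups overlapped, and the third wild-type ethanol library stood far below the other two. The log2 change with ethanol was 7.23 ± 0.48 in wild type and 6.21 ± 0.41 in the deletion, 212 and 85.8 times the glucose mean.

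SPG5, whose product takes part in proteasome assembly in quiescent cells, was steadier. It read 59.9, 59.6 and 63.7 FPKM in wild-type glucose libraries and 62.1, 62.3, 69.9 and 74.3 FPKM in deletion glucose libraries. The ethanol values were 406, 413 and 300 FPKM in wild type and 330, 251, 357 and 250 FPKM in the deletion. The genotypes overlapped in both media. With a log2 change of 2.58 ± 0.15 in wild type and 2.11 ± 0.13 in the deletion, it had the smallest ratio of the 9 in wild type, 6.10 times the glucose mean.

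SPG1, whose product is found in mitochondria, stayed low. It read 8.30, 8.87 and 7.18 FPKM in wild-type glucose libraries and 10.99, 12.3, 16.2 and 9.23 FPKM in deletion glucose libraries. After the move to ethanol it reached 49.3, 112 and 33.9 FPKM in wild type and 64.1, 25.2, 41.5 and 21.3 FPKM in the deletion. The glucose groups did not overlap, narrowly, and the ethanol groups overlapped widely. The log2 change with ethanol was 2.68 ± 0.41 in wild type and 1.46 ± 0.36 in the deletion.

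The order of the genes by mean FPKM, which is a level per length, changed with the medium. In wild-type glucose libraries it ran STF2, RGI1, TMA10, SPG5, SIP18, SPG1, SPG4, GRE1 and RGI2, and neighbours overlapped between libraries in the last 2 steps. In wild-type ethanol libraries it ran TMA10, STF2, RGI2, RGI1, SPG4, SIP18, SPG5, SPG1 and GRE1. There the libraries of RGI2 and RGI1 overlapped, as did those of SPG4 with SIP18, SIP18 with SPG5 and SPG1 with GRE1. The deletion kept the wild-type order in glucose, while in ethanol RGI1 stood above RGI2 and SPG5 above SIP18, each within overlapping libraries. Together the 9 genes held 0.0641% to 0.0769% of all FPKM in wild-type glucose libraries and 2.96% to 3.71% in wild-type ethanol libraries. The deletion libraries held 0.0971% to 0.129% and 2.07% to 3.17%. In these bulk cultures, more cells that express a gene and more RNA per expressing cell cannot be told apart.

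The rise of the members with ethanol was read against a transcriptome in which 50.5% of the genes tested were called higher and 24.8% lower in wild type, and 46.9% and 27.7% in the deletion (limma, Benjamini-Hochberg adjusted p under 0.05). Since the same contrast selected the members, nothing is drawn from their place in it. The median of all genes tested moved by 0.31 on the log2 scale with ethanol in wild type and 0.19 in the deletion, and the members' medians were 4.32 and 3.12. Scaling each library to its median took the median of all genes to -0.01 in wild type and left 49.8% of the called genes higher, against 67.0% with the FPKM as deposited.

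In glucose, estimates for 8 of the 9 genes were higher in the deletion than in wild type. This fell to 7 under median scaling or quantile normalization, where SPG4 turned to -0.01 and -0.17. It was also 7 without the NKI5620 libraries or without wild-type glucose library 3. It was 9 without wild-type glucose library 2 or with the replicate block. None of the 9 genes passed the test in the main fit. Differences were 0.88 ± 0.17 (SE) on the log2 scale for RGI1, 0.82 ± 0.14 for TMA10, 0.77 ± 0.28 for SIP18, 0.76 ± 0.38 for RGI2, 0.67 ± 0.17 for STF2 and 0.51 ± 0.38 for SPG1. SPG5, SPG4 and GRE1 gave 0.13 ± 0.14, 0.08 ± 0.45 and -0.06 ± 0.33. The RGI2 value depended on the pseudocount, at 0.33 with 5 and 1.16 with 0.1. TMA10 came nearest to the threshold, with an adjusted p of 0.0527 (limma, over all genes tested), then RGI1 with 0.106 and STF2 with 0.23. The remaining 6 had adjusted p from 0.369 to 0.962. Only 2 of 6267 genes were called in this comparison (0.0319%), the deleted FPT1 itself among them. An unadjusted p under 0.05 was found for 723 genes, including 4 of the 9 members.

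The libraries of 5 of 9 members (RGI1, TMA10, STF2, SIP18 and SPG1) were all higher in the deletion than in the wild type in glucose, against 15.6% of the genes tested. The members' median difference was 0.67, while the median of all genes was 0.08, with 73.1% above 0. Of these 5 members, 4 carry the stress response element in the promoter windows above, and SPG1 does not. Only tested genes with a promoter window could be classed by the element. The deletion libraries stood wholly above the wild type for 14.6% of the 4369 without it and 22.2% of the 1363 with at least 1. Among the latter, the share was 32.6% for the 239 with at least 2. The median glucose difference of those classes was 0.07, 0.10 and 0.15. The classes also differed in their wild-type ethanol change, with medians of 0.24, 0.67 and 1.31 on the log2 scale. These shares are a description, and the part of the element in them was not tested.

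TMA10 in glucose lay close enough to the threshold for single choices to matter. It passed the threshold in 5 of 23 alternative fits, with adjusted p from 0.0238 to 0.37. RGI1 passed in 2 of 23, at 0.0183 when only the 2 glucose groups were fitted and at 0.00609 without the first deletion ethanol library, which changes the shared estimate of spread.

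**Figure D4:**
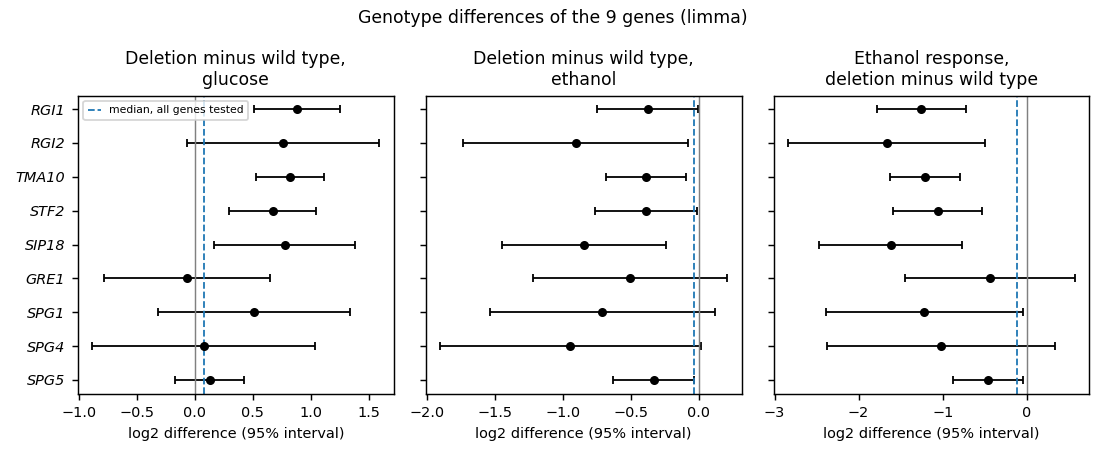
Differences between deletion and wild type for the 9 genes on the log2(FPKM + 1) scale, in glucose, in ethanol and as the difference of the ethanol responses. Points are limma estimates over 14 libraries, bars are 95% intervals, and the dashed line is the median of all genes tested. Points lie right of 0 for 8 genes in glucose and left of 0 for all 9 in the other 2 panels. In glucose, SPG4 changes side in 6 of 23 alternative fits. Among these, median scaling, quantile normalization and leaving out the NKI5620 libraries each leave 7 genes right of 0.

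In ethanol the sign was the other way. All 9 members had lower estimates in the deletion, and none passed the test. The estimates were -0.94 ± 0.45 (SE) for SPG4, -0.90 ± 0.38 for RGI2, -0.85 ± 0.28 for SIP18, -0.71 ± 0.38 for SPG1 and -0.50 ± 0.33 for GRE1. TMA10, STF2, RGI1 and SPG5 gave -0.39 ± 0.14, -0.39 ± 0.17, -0.38 ± 0.17 and -0.33 ± 0.14. Leaving out 1 library moved SPG4 between -1.52 and -0.62, SPG1 between -1.08 and -0.23, GRE1 between -0.87 and -0.22 and SIP18 between -1.11 and -0.50. Adjusted p ran from 0.122 for SIP18 to 0.365 for GRE1 (limma). In this comparison 2 of 6267 genes were called (0.0319%), the deleted FPT1 itself among them. An unadjusted p under 0.05 was found for 1510 genes, including 6 members. For none of the 9 did the deletion libraries lie wholly below the wild type, against 4.12% of the genes tested. The members' median was -0.50, and that of all genes -0.04, with 42.5% of all genes above 0.

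The spread in ethanol ran along the libraries rather than cleanly along the genotype. Deletion ethanol library 4, the only ethanol library of strain NKI5620, was the lowest of the 7 for all 9 members. Deletion ethanol library 2, of strain NKI5633, was the second lowest for all 9. Without the NKI5620 libraries the members' median genotype difference in ethanol was -0.33, against -0.50 with them. All 9 estimates stayed below 0. Wild-type ethanol library 2 was the highest for 6 members. The first principal component, computed without the members and holding 81.6% of the variance, separated ethanol from glucose libraries and ordered the ethanol libraries in much the same way. Wild-type ethanol libraries 1 to 3 scored 57.3, 55.9 and 46.3, and deletion ethanol libraries 1 to 4 scored 51.1, 34.6, 44.8 and 31.2. In glucose the wild type scored -47.5, -47 and -49.9, and the deletion -44, -48, -42.8 and -42.1. The part of this component in the genotype differences was not tested.

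**Figure D5:**
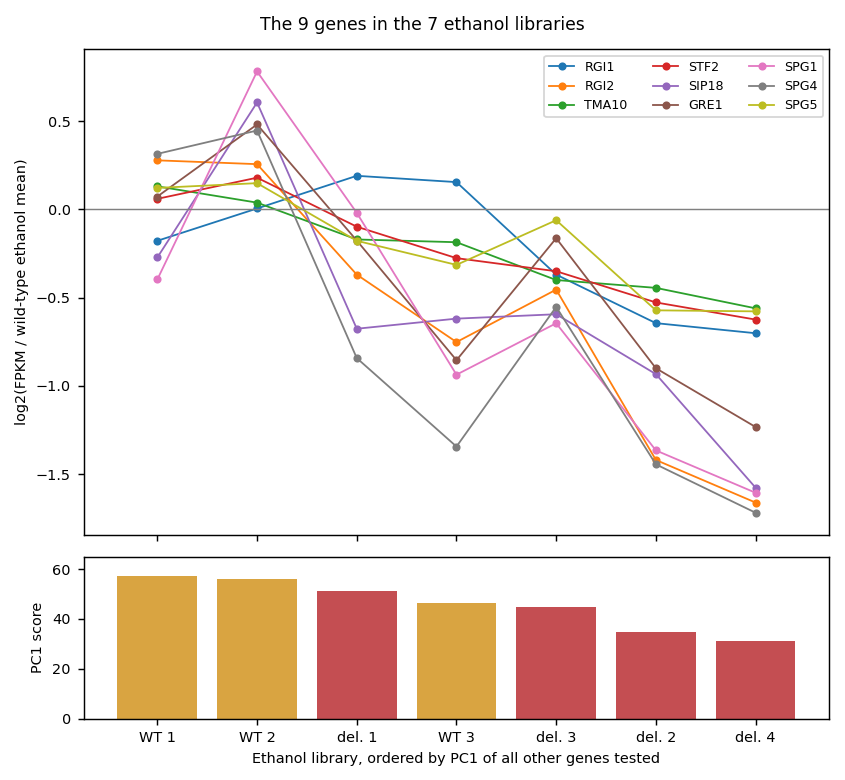
The 7 ethanol libraries, ordered by their score on the first principal component of all other genes tested (lower panel). Lines in the upper panel give each gene's log2 FPKM relative to its wild-type ethanol mean, with 1 colour per gene. All 9 lines reach their lowest point in deletion library 4, the only ethanol library of strain NKI5620. Wild-type library 3 and deletion library 1 stand out of genotype order on the component (46.3 and 51.1).

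The response to ethanol was smaller in the deletion for all 9 members by estimate, with no member past the threshold. The difference of the responses was -1.67 ± 0.54 (SE) on the log2 scale for RGI2, -1.62 ± 0.40 for SIP18, -1.25 ± 0.24 for RGI1, -1.22 ± 0.54 for SPG1 and -1.21 ± 0.19 for TMA10. STF2, SPG4, SPG5 and GRE1 gave -1.06 ± 0.25, -1.02 ± 0.63, -0.46 ± 0.19 and -0.44 ± 0.47. This difference is made of the same changes with ethanol that were known when the members were chosen. Its p-values, ranks and counts for the members, here and with libraries left out, are not independent of that choice and are a description. TMA10 ranked 2 of 6267 genes by p and RGI1 ranked 6, with adjusted p of 0.0881 and 0.126 (limma). The other 7 lay between 0.126 and 0.563. No gene at all was called (0%), although 1603 genes had an unadjusted p under 0.05, among them 7 of the 9 members. The members' median was -1.21, and that of all genes -0.12, with 31.9% of all genes above 0.

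Calls for the difference of the responses appeared when single libraries were left out. Without deletion ethanol library 1, the difference of the responses was called for 844 genes, or 13.5% of those tested. Among them were RGI1, RGI2, TMA10, STF2 and SIP18, with adjusted p of 0.00346, 0.0415, 0.0142, 0.022 and 0.0263 (limma). Without wild-type ethanol library 3, it was called for 654 genes (10.4%), among them the same 5 members and SPG5, with adjusted p from 0.0276 to 0.0491 (limma). Without wild-type glucose library 2, TMA10 alone of the members was called, at -1.37 (adjusted p = 0.0298). The 2 ethanol libraries just named are those that stood out of genotype order on the first component. By the scores given above, leaving out either of them left the genotypes without overlap on that component in ethanol. In ethanol the deletion was then called against wild type for 912 genes (14.6%) without deletion ethanol library 1. RGI1 and TMA10 were included (limma, adjusted p = 0.0113 and 0.0442). Without wild-type ethanol library 3 it was called for 964 genes (15.4%), SIP18, SPG4 and SPG5 included (limma, adjusted p = 0.0248, 0.0239 and 0.0319).

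Among themselves the 9 genes moved closely. Pearson's r of log2(FPKM + 1) over the 14 libraries had a median of 0.978 over the 36 pairs (0.891 to 0.996), and all points share the difference between media. After the 4 group means were taken out, the median was 0.580 (0.261 to 0.882), and all 36 pairs lay above 0. RGI2 with SPG5 was the closest pair by this second measure and RGI2 with TMA10 the least close. Library depth and RNA quality are shared by all genes of a library, so these values are a description.

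The genes most like each member, by r over the 14 libraries, were YPK2 for RGI1, MAL33 for RGI2, MRK1 for TMA10, MRPS28 for STF2, IWR1 for SIP18, MRX19 for GRE1, SNX4 for SPG1, INM2 for SPG4 and ALD4 for SPG5. Their r ran from 0.980 for SNX4 with SPG1 to 0.998 for MRK1 with TMA10. By r of the deviations from the group means, YPK2, SNX4, INM2 and ALD4 again came first, at 0.951, 0.942, 0.970 and 0.967. The other 5 were TPO4 (0.928) for RGI2, GET1 (0.947) for TMA10, SPC19 (0.946) for STF2, PDS1 (0.924) for SIP18 and MRX10 (0.926) for GRE1. Each is the highest among the genes tested that are not members. With a pseudocount of 5 the same gene came first for 6 of 9 members by the first measure and for 4 of 9 by the second. Paralogues did not come first. RGI2 ranked 170 for RGI1 and STF2 ranked 160 for TMA10 by the first measure, while GRE1 ranked 1257 for SIP18.

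Genes with related roles gave a setting for these values. Over all genes tested, 50.5% were called higher and 24.8% lower in wild-type ethanol. The ATP synthase list holds nuclear genes for subunits, though not for every subunit, and the inhibitors that Stf2 is thought to modulate. It was called higher in wild-type ethanol for 15 of 15 genes and lower for 0. Its genotype estimates were above 0 for 13 of 15 genes in glucose, and for 0 in ethanol and for the difference of responses. INH1, the inhibitor of ATP hydrolysis by the synthase, went from 56.4 ± 12.7 FPKM (SD, n = 3) in wild-type glucose to 2265 ± 186 FPKM (n = 3) in wild-type ethanol, a log2 change of 5.32 ± 0.20 (SE; limma, adjusted p = 6.5e-11). STF1, a second inhibitor, rose by 5.04 ± 0.20 (adjusted p = 8.28e-11). The next was ATP15, a small subunit of the F1 sector, at 2.65 ± 0.15 (adjusted p = 1.9e-09).

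Of 20 post-diauxic and stationary-phase genes, 19 were called higher in wild-type ethanol and 0 lower, and in the deletion 17 higher and 1 lower. Among all genes tested the shares were 50.5% and 24.8% in wild type, and 46.9% and 27.7% in the deletion. PCK1, which commits carbon to gluconeogenesis, rose by 5.85 ± 0.21 on the log2 scale, MPC3, a subunit of the mitochondrial pyruvate carrier, by 5.72 ± 0.19, and FMP16 by 5.10 ± 0.33 (limma adjusted p = 5.57e-11, 2.88e-11 and 6.89e-09). The list's median was 3.14 in wild type and 2.13 in the deletion. Its genotype medians were 0.28 in glucose, -0.47 in ethanol and -0.75 for the difference of responses, with 0 of 20 genes called in any of the 3. Estimates were above 0 for 16 of 20 genes in glucose, 0 in ethanol and 1 for the difference of responses.

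Of 11 small stress and desiccation proteins, 7 (63.6%) were called higher and 3 (27.3%) lower in wild-type ethanol. The shares over all genes tested were 50.5% and 24.8%. DDR2 rose by 6.17 ± 0.22, the membrane-protecting HSP12 by 5.34 ± 0.50 and the proteinase inhibitor PBI2 by 4.39 ± 0.17 (limma adjusted p = 4.63e-11, 2.78e-07 and 6.84e-11). The list's genotype medians were -0.07 in glucose, with 5 of 11 genes above 0, -0.35 in ethanol and -0.15 for the difference of responses. Between genotypes DDR2, picked after its values were seen, gave 0.78 ± 0.21 in glucose and -0.81 ± 0.21 in ethanol, with adjusted p of 0.242 and 0.107. HSP12 was lower by estimate in the deletion in both media, at -0.68 ± 0.47 and -1.25 ± 0.47 (adjusted p = 0.573 and 0.147). The 13 genes that share a name with members (TMA, GRE and SPG) did not move as a block, with 3 called higher and 6 lower in wild-type ethanol. Their genotype estimates were above 0 for 7 of 13 in glucose, in ethanol and for the difference of responses. TMA17, an assembly chaperone of the proteasome, rose by 3.17 ± 0.15 and GRE3, an aldose reductase, by 1.77 ± 0.12, while TMA23, a nucleolar ribosome biogenesis protein, fell by 1.76 ± 0.13 (limma adjusted p = 4.55e-10, 9.04e-09 and 2.87e-08).

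Of 20 regulators, 14 (70%) were called higher and 4 (20%) lower in wild-type ethanol, against 50.5% and 24.8% of all genes tested. XBP1, a repressor induced by stress, rose by 4.57 ± 0.27, CAT8, an activator of gluconeogenic genes, by 4.37 ± 0.22, and MIG2, a glucose repressor, fell by 3.58 ± 0.17 (limma adjusted p = 2.72e-09, 7.93e-10 and 4.51e-10). GIS1 rose by 1.45 ± 0.14 and HAP4 by 1.34 ± 0.09 (adjusted p = 2.58e-07 and 1.54e-08). MSN2 fell by 0.33 ± 0.10 (adjusted p = 0.0091) and MSN4 rose by 0.41 ± 0.10 (adjusted p = 0.00176), a call that median scaling ended (0.09, adjusted p = 0.383). Between genotypes HAP4, picked after its values were seen, gave 0.49 ± 0.09 in glucose and -0.09 ± 0.09 in ethanol (limma adjusted p = 0.0735 and 0.562). In glucose GIS1, MSN4 and MSN2 gave 0.36 ± 0.13, 0.22 ± 0.09 and 0.09 ± 0.10 (adjusted p = 0.369, 0.408 and 0.719). Genotype estimates were above 0 for 20 of 20 regulators in glucose, 5 in ethanol and 3 for the difference of responses. No gene of any of the 5 lists was called between genotypes or for the difference of responses, where 0.0319%, 0.0319% and 0% of all genes were.

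Neighbouring genes on the chromosome moved in both directions. Of 18 neighbours, 14 could be tested, and in wild-type ethanol 9 were called higher and 2 lower, with a median log2 change of 0.98. Over all genes tested, 50.5% were called higher and 24.8% lower, with a median of 0.31. PAI3, a proteinase A inhibitor 650 bases from SIP18 on the opposite strand, had the highest, 3.60 ± 0.20 (limma, adjusted p = 1.65e-09), and ILV2 beside SPG4 the lowest, -1.27 ± 0.07 (adjusted p = 2.58e-09).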

How the data were processed

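The authors deposited 1 table of FPKM values with a column for each of the 14 samples, matched to groups by the sample titles. Per the labels' protocols, stranded poly(A) libraries were read as 65-base single reads. STAR 2.7.1a and the sacCer3 build were used, per the submitters' processing notes. For the FPKM step, the tool, annotation and strand setting were not given in the sources used here. No count model was applied, since FPKM is a normalized unit.

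Genes that reached 1 FPKM in 3 or more of the 14 samples were fitted on log2(FPKM + 1) with limma 3.58.1 in R 4.3.3, with 1 mean per group, empirical Bayes moderation with a mean-variance trend, and two-sided tests. P-values were adjusted by Benjamini-Hochberg over all 6267 genes within each comparison, with a threshold of 0.05. The fit was tested on simulated data. Other pseudocounts (0.1 and 5), filters, scalings, a replicate block, the compared groups alone and leaving out each library were tried.

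The 9 members, the gene lists and the tests were chosen with earlier results of these data known. Named genes were all members, the most alike gene of each by 2 measures, the 3 largest called changes of each list in wild type, and INH1, STF1, MSN2, MSN4, GIS1, HAP4 and FPT1. The neighbours PAI3 and ILV2, and the values of DDR2, HSP12 and HAP4 between genotypes, were picked after their values were seen. Sequences and positions come from RefSeq assembly R64. Its genome was read in place of the tables of promoters and proteins that the plan had named, and the promoter window was chosen after the data were seen. The promoter of RGI2 is not reported here. Depth is an estimate, from low values in coding regions of at least 900 bases, so no counting interval is given.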

Additional observations from a re-analysis of the deposited data

How the results depend on the processing

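Few genes were called between genotypes. In glucose 2 genes were called, among them the deleted gene FPT1 itself (limma, adjusted p = 2.96e-11). The count became 1 with a pseudocount of 5, no filter, median scaling, the replicate block or without the NKI5620 libraries. It was 5 with a filter at 5 FPKM and 8 with a fit of only the glucose groups. Leaving out 1 library gave 1 to 9. In ethanol 2 genes were called, again with FPT1 among them (limma, adjusted p = 1.59e-12). The count became 4 with a pseudocount of 5, and 1 with no filter, either scaling, the replicate block, without the NKI5620 libraries or with only the ethanol groups. Leaving out 1 library gave 1 to 964. For the difference of responses 0 genes were called, 1 with a pseudocount of 5, no filter or without the NKI5620 libraries, and 0 to 844 with 1 library left out; it stayed at 0 in 15 of 22 alternatives. A fit of only the compared groups gives no value for that difference. The ethanol responses stayed within 1.5 times their counts of 4718 and 4672. The cause of these changes was not tested.

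Among the members, the sign of the genotype estimate changed only for GRE1 and SPG4 in glucose, both near 0. GRE1 went from -0.06 to 0.022 with the replicate block and ran from -0.32 to 0.19 with 1 library left out. SPG4 went from 0.08 to -0.013 with median scaling, -0.17 with quantile normalization and -0.042 without the NKI5620 libraries, and ran from -0.15 to 0.41 with 1 library left out. The ethanol changes of the members moved by more than the replicate spread in 19 of 414 alternatives, under other scalings or pseudocounts, and none changed sign. The deviations of same-numbered libraries gave r from -0.423 to 0.325. Differently numbered libraries were not compared as a reference, so these values cannot decide whether the numbers pair the libraries. Among the other genotype estimates, RGI2 in glucose ran from 0.33 to 1.16 over the alternatives, TMA10 in ethanol from -0.48 to -0.14, and GRE1 from -0.81 to -0.15 for the difference of responses. The few reads of RGI2 limit its values in glucose, at an estimated 1 to 14 per library with 200 bases taken off its coding length.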
